A study of Homo sapiens with 12 samples.

Results

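HIC1 and 7 other genes listed with it as tumor suppressors silenced by DNA methylation (CDH1, SFRP1, DAPK1, ID4, CTNNA1, DLX4 and PDLIM4) were followed in RNA-seq of U937 cells. All rows of the transcript table that carry 1 of these 8 symbols were taken, 101 transcripts in all. Of these, 27 had a read in at least 1 of the 12 libraries, against 68785 transcripts with a read in the whole table. U937 is a human acute myeloid leukemia (AML) line of myelomonocytic type. There were 3 libraries each of untreated cells, of cells given 200 nM decitabine (DAC), of cells given 1 µM all-trans retinoic acid (ATRA), and of cells given both (DAC + ATRA). Per the labels all cells grew with GM-CSF, the treated cells are marked 72 h and the untreated cells 96 h, while the methods name 72 h alone. Where the labels hold, treatment and time cannot be told apart. Per the methods ATRA was added with the last of the daily DAC doses. The libraries are replicates of 1 cell line, and the study's RNA-seq methods do not say whether they come from separate cultures. The p-values measure only the spread between these libraries. As in any bulk sample, fewer cells of a type and less RNA per cell cannot be told apart.

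HIC1 (hypermethylated in cancer 1) encodes a zinc finger repressor, and its promoter is methylated in many tumors. DNA methyltransferases copy methyl groups onto CpG dinucleotides at each cell division, and a densely methylated CpG island keeps the gene behind it off. Decitabine is built into new DNA and traps these enzymes, which leaves daughter cells with fewer methyl marks. ATRA binds retinoic acid receptors, which switch on genes near their binding sites and drive myeloid cells towards maturation.

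The question was which of these genes gained RNA under either drug or their combination. HIC1 rose with each drug and was highest with both, and DLX4 rose with DAC. The summed reads of CTNNA1, mostly those of a retained intron form, rose with DAC + ATRA. CDH1 and ID4 had no read in any library. DAPK1, PDLIM4 and SFRP1 stayed at a few reads. In untreated cells DLX4 and CTNNA1 were already present, with 58.3 to 64.6 and 15.5 to 25.7 normalized reads per library, so these data do not show them as silent there. A normalized read is a read divided by the size factor of its library, and 3 reads equal 2.50 to 3.71 normalized reads.

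The libraries held 8042435 to 10683593 counted reads, of which 36.3% to 42.5% were mitochondrial, and pairs of libraries of 1 group differed by more than sampling noise (chi-square per degree of freedom 3.21 to 14.9 over the tested transcripts). Across the 9016 protein-coding transcripts tested, the median log2 fold change with DAC was 0.22 on the deposited scale and 0.02 under TMM scaling in edgeR, so changes of that size cannot be read as changes of a gene. Of 10 myelomonocytic markers, 6 had at least 10 normalized reads in all 12 libraries, and their summed level was 1483 to 1599 in untreated cells, 2823 to 3029 with DAC, 2513 to 2570 with ATRA and 5185 to 5278 with DAC + ATRA. Of the 5 that were tested, 3 rose with DAC + ATRA (LYZ by 2.73 on the log2 scale, ITGAX by 3.77 and ITGAM by 3.75) and none fell, with SPI1 at -0.10 and FCGR1A at -0.28, where 32.6% and 14.2% of all transcripts rose and fell. ITGAX had under 10 normalized reads in every untreated library, so this count is a description. KLF1, an erythroid factor, fell by 0.78. PTPRC, the pan-leukocyte CD45, is listed at 0. The 8 epithelial markers summed to 1.84 to 3.64 in untreated cells, 14.1 to 35.1 with DAC, 2.11 to 3.33 with ATRA and 33.4 to 37.1 with DAC + ATRA. The 8 lymphoid and erythroid markers summed to 232 to 267, 603 to 620, 307 to 475 and 1393 to 1453 in the same order. CD79A, of the B cell receptor, carried most of that sum, and HBB, a globin, was at 0. The part of these markers in the results below was not tested.

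The letters of 3 start regions are shown because CpGs are the sites of the methyl marks that DAC lowers. Methylation of these regions was not measured here. RefSeq holds start regions (250 bases before to 50 after a start, GRCh38.p14) for 4 of the 8 genes, and the 3 printed here belong to a gene without reads, a gene with reads in DAC-treated cells only, and a gene expressed in all libraries. CpGs are in capitals. ID4 lies at chr6:19837120-19837419, PDLIM4 at chr5:132257446-132257745 and CTNNA1 at chr5:138753572-138753871, all on the plus strand.
ID4: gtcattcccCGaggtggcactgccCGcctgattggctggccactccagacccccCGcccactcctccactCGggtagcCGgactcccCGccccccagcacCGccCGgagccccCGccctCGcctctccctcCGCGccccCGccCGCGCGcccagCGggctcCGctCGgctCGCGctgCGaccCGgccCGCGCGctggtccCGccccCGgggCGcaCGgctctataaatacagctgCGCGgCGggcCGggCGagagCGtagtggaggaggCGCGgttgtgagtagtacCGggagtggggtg
PDLIM4: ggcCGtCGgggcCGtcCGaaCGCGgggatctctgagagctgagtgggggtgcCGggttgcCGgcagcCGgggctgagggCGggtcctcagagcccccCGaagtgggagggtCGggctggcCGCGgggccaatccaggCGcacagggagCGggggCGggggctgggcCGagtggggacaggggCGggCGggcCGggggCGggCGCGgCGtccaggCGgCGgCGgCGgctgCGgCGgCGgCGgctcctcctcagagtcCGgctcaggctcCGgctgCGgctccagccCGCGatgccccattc
CTNNA1: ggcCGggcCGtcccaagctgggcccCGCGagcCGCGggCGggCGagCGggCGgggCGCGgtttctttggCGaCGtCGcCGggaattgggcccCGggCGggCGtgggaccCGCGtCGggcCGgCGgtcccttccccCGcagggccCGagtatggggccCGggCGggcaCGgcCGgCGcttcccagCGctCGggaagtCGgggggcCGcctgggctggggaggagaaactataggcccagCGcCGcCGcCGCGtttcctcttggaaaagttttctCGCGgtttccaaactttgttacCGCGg

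ID4 has 39 CpGs in its 300 bases, PDLIM4 38 and CTNNA1 44, where the median of all 35116 start regions in that table is 14. These counts stand above 91.3%, 90.1% and 95.8% of all start regions. CTNNA1 has 3 other regions, with 37, 3 and 8 CpGs, and the 2 regions of DAPK1 have 37 and 33. CDH1, SFRP1, HIC1 and DLX4 have no entry there. In windows of 1000 bases centred on the start of the leading transcript, the CpG counts were 122 for CTNNA1, 113 for ID4, 109 for SFRP1, 105 for HIC1, 85 for PDLIM4, 76 for CDH1, 74 for DLX4 and 46 for DAPK1, with a median of 60 over 18758 genes. The leading transcript is the protein-coding one with the highest mean over the 12 libraries, and that of DAPK1 starts upstream of both of its RefSeq regions.

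Retinoic acid receptors bind direct repeats of a 6-base half-site, and a spacer of 5 bases gives the DR5 element. Within 5000 bases on either side of the start of its leading transcript, HIC1 has 1 such repeat and the other 7 genes have none, while 2.23% of the starts of 7441 tested genes have one. It is shown because HIC1 was the gene of the 8 that passed the test with ATRA. It lies in the first intron, on the plus strand at chr17:2055420-2055436, 317 bases downstream of the start, with the half-sites in capitals. A match is a property of the letters, and binding was not measured here.
HIC1 DR5: GGTTCAcggcgGGGTCA

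**Figure D1:**
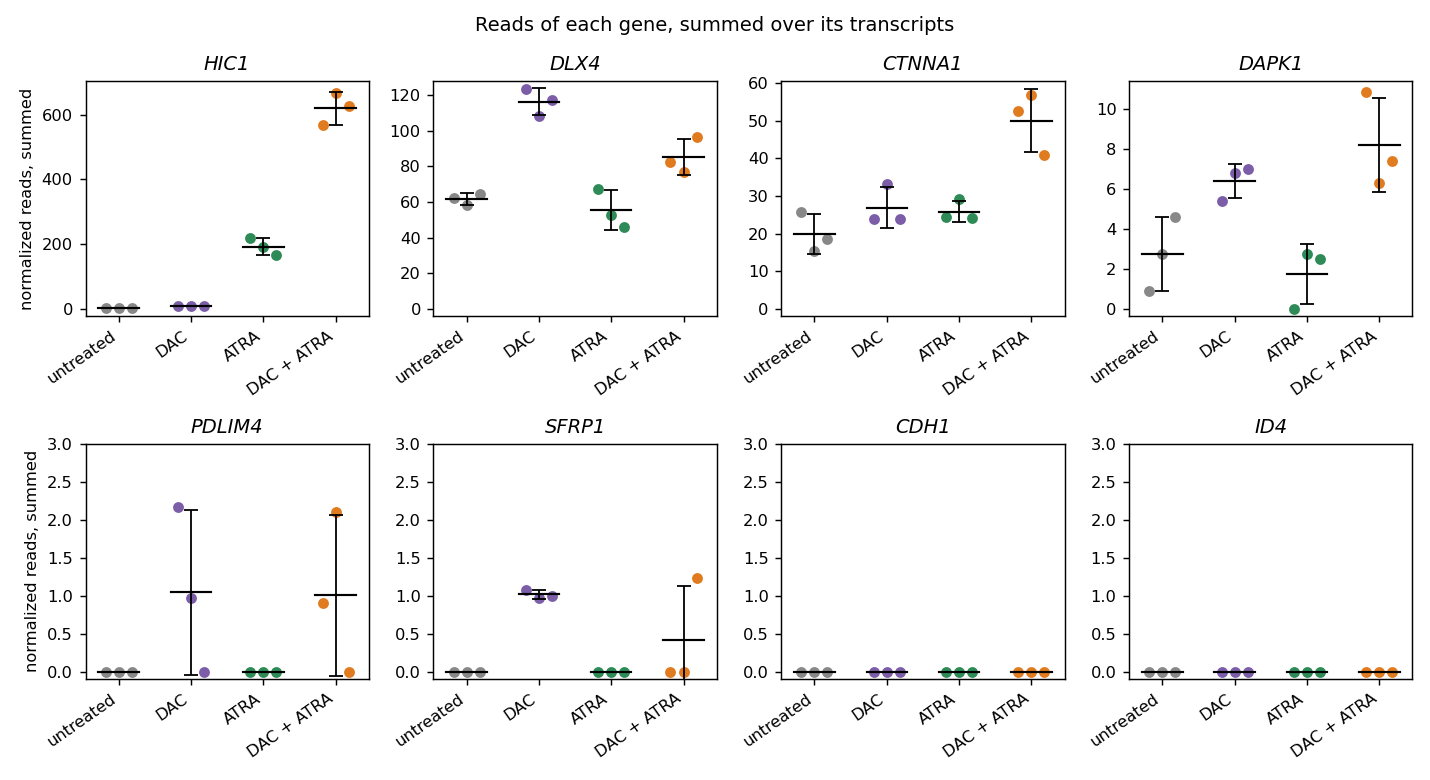
Normalized reads of the 8 genes, each summed over its transcripts, in the 12 libraries (points), with the group mean (line) and SD (bar, n = 3); the vertical axes differ between panels. HIC1 is highest with DAC + ATRA (567 to 667), DLX4 with DAC (108 to 123), and CDH1 and ID4 have no read.

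Levels can be set against each other only per length, here with reads in shared bases taken as not counted, which was not tested. Per kilobase of the exon sequence that no other transcript of the strand covers, DLX4 led in untreated cells with 40.7 ± 2.14 normalized reads (SD, n = 3), followed by CTNNA1 (4.96 ± 1.31), DAPK1 (1.28 ± 0.86) and HIC1 (0.55 ± 0.12). DAPK1 and HIC1 do not differ beyond their spread there. With DAC the order was DLX4 (76.6 ± 5.02), CTNNA1 (6.71 ± 1.34), DAPK1 (2.97 ± 0.40) and HIC1 (2.20 ± 0.03). With ATRA alone HIC1 was at 43.2 ± 6.0 and DLX4 at 36.5 ± 7.33, which overlap, and with DAC + ATRA HIC1 led with 139 ± 11.3 before DLX4 with 56.1 ± 6.65 and CTNNA1 with 12.5 ± 2.07. PDLIM4 and SFRP1 stayed at or under 0.90 in all groups on this scale.

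Only 3 transcripts of the 8 genes had at least 10 normalized reads in at least 3 libraries and a coding annotation, and so entered the test across all genes. They are ENST00000619757 and ENST00000576444 of HIC1 and ENST00000240306 of DLX4. Both HIC1 transcripts passed that filter only through the groups in which they are high, so their counts below are a description. With DAC against untreated cells, 2 of the 3 passed an adjusted p of 0.01, both higher, while 39.3% of all 9016 transcripts were called (30.6% higher, 8.7% lower). With ATRA it was 1 of 3, higher, against 9.14% of all (6.47% higher, 2.67% lower). With DAC + ATRA against untreated cells 2 of 3 were higher, against 46.8% of all (32.6% higher, 14.2% lower). The same groups against DAC gave 2 of 3 (11.3% of all, 6.08% higher and 5.26% lower), and against ATRA 3 of 3 (34.8% of all, 25.9% higher). The interaction, that is the difference between the effect of DAC in the presence and in the absence of ATRA on the log2 scale, was called for 1 of 3, against 2.46% of all (0.787% higher, 1.67% lower). All adjusted p-values here are from limma with Benjamini-Hochberg adjustment over all transcripts tested.

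The main transcript of HIC1 (gene ENSG00000177374), ENST00000619757, has 2 exons and covers positions 2055103 to 2063241 of chromosome 17, plus strand. In untreated cells its normalized reads were 1.84, 2.73 and 1.85, at 2 to 3 reads per library. With DAC they were 8.65, 6.82 and 8.96. With ATRA they were 213, 186 and 164, and with DAC + ATRA 533, 623 and 596. No 2 groups overlap, and the 4 groups stand in the order untreated, DAC, ATRA and DAC + ATRA (exact two-sided permutation test on the gene's summed reads, p = 0.1 in each of the 5 comparisons, the smallest that 3 libraries against 3 allow). DAC alone gave 24 reads against 7 in untreated cells, a ratio of 3.79 with a counting interval of 1.59 to 10.4 (exact, 95%). ATRA alone gave a ratio of 86.7 (41.8 to 217) and DAC + ATRA a ratio of 271 (131 to 676). DAC + ATRA was 71.7-fold above DAC and 3.11-fold above ATRA.

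On the log2(normalized reads + 1) scale of the test, HIC1 rose by 1.55 with DAC (SE 0.20, adjusted p = 1.90e-06, limma) and by 5.91 with ATRA (adjusted p = 1.15e-14, limma). Adding DAC to ATRA raised it by 1.64 (adjusted p = 9.64e-07, limma). The interaction was 0.09 (SE 0.29, adjusted p = 0.91, limma). Its sign turned with a pseudocount of 0.1 (-0.25) and in both count models, for instance -0.23 in DESeq2. In normalized reads, the group means went from 2.14 to 8.14 without ATRA and from 188 to 584 with it. The increase with DAC alone rests on few reads and missed the threshold in DESeq2 (adjusted p = 0.013).

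Where the reads behind these values lie along the gene was not examined. The bases that the main transcript alone covers lie at its end. Of the 6707 bases of the main transcript, 3555 are covered by no other transcript of the strand, from 2059687 to 2063241, and none of them is coding (the coding part spans 2056691 to 2058832). Of the 3555, 2419 lie opposite exons of minus-strand transcripts, chiefly those of SMG6, and 1136 do not. SMG6, a nuclease of nonsense-mediated decay, had 539 to 648 normalized reads in untreated cells for its main transcript ENST00000263073. Its short transcript ENST00000574501, whose 639 own bases all lie opposite the last exon of HIC1, had 4.32 to 37.1 normalized reads, highest with DAC + ATRA. The libraries are strand-specific per the submitters, and the setting of the counting is not stated.

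The other 2 HIC1 transcripts with reads start elsewhere. ENST00000574370, which starts upstream at 2054154, had 1 read in untreated cells and 5 with DAC. ATRA gave 15 reads and both drugs gave 33, or 1.87% of the HIC1 reads there. It was not tested. ENST00000576444 is a single exon from 2056219 to 2056943, of which 452 bases lie in the intron of the main transcript and 273 in its second exon. It had no read in untreated cells or with DAC and 1 read in 1 of 3 libraries with ATRA. With DAC + ATRA it had 22.6, 30.5 and 19.8 normalized reads, 70 reads in all.

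**Figure D2:**
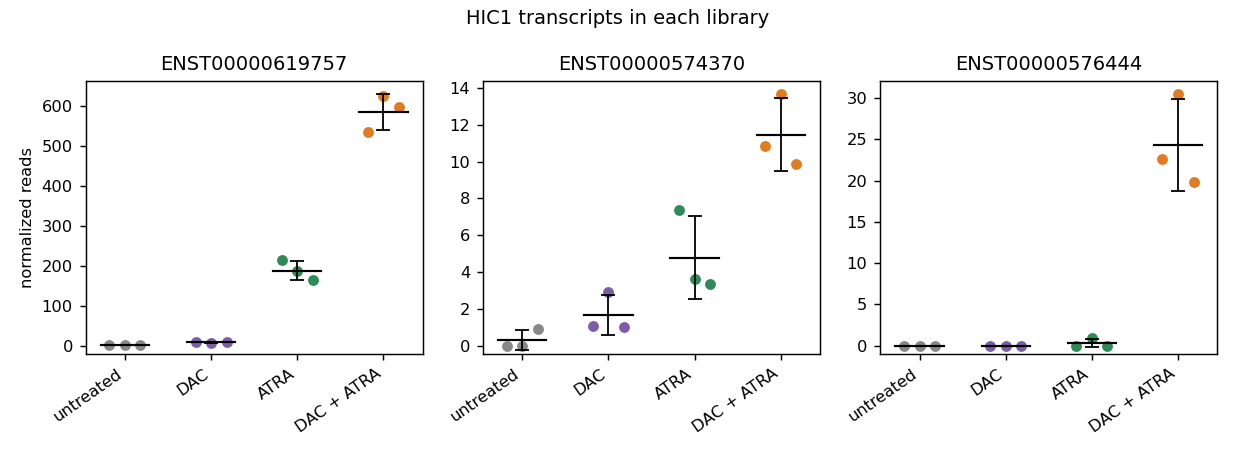
Normalized reads of the 3 HIC1 transcripts with reads, per library (points), with group mean (line) and SD (bar, n = 3); the vertical axes differ. ENST00000576444 has reads almost only with DAC + ATRA, where it holds 3.96% of the HIC1 reads.

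ENST00000576444 was thus at least 8.83-fold above untreated cells under DAC + ATRA, with untreated libraries set at 3 reads each, and at least 7.96-fold higher than with DAC. Against ATRA the ratio was 79.3, with a counting interval of 13.8 to 3177. As a share of all HIC1 reads it was 3.99%, 4.57% and 3.16% with DAC + ATRA and 0%, 0.48% and 0% with ATRA, or 70 of 1767 and 1 of 619 reads, and the libraries of the 2 groups do not overlap. Its interaction was 4.33 (SE 0.58, adjusted p = 6.56e-05, limma) but did not pass with a pseudocount of 0.1 (adjusted p = 0.092) or in edgeR (adjusted p = 1.0), and a fitted value against groups at 0 depends on the pseudocount. Leaving out any DAC + ATRA library took it under the filter, so that it was then not tested.

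**Figure D3:**
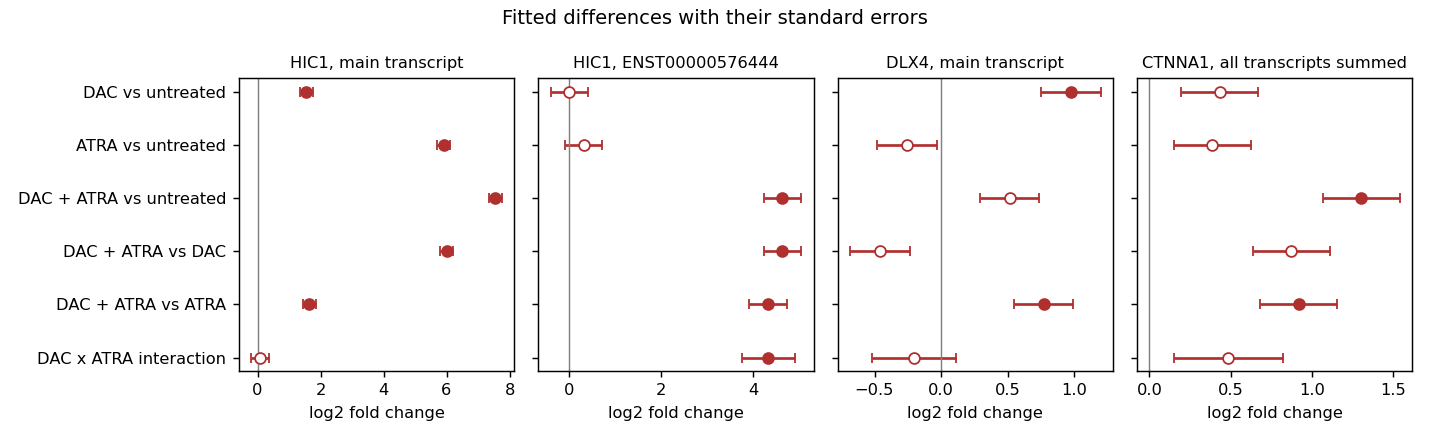
Fitted log2 fold changes (points) with SE (bars) for the tested HIC1 and DLX4 transcripts and for CTNNA1 summed over all its transcripts; filled points passed an adjusted p of 0.01 (limma). The main HIC1 transcript passed in 5 of 6 contrasts, all but the interaction.

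The surroundings of HIC1 moved too. The 10 other transcripts within 50 kb on either side that had at least 10 normalized reads in 3 libraries were taken, whatever their annotation, and tested among 19373 transcripts of all kinds. This set was chosen after the values of HIC1 were seen. With ATRA, 6 of these 10 rose and none fell (5.11% of all 19373 were called higher). Of the 6, 5 had under 10 normalized reads in every untreated library and passed the filter through groups in which they are high, so that this count is a description. With DAC 2 rose (22.2% of all called higher). With DAC + ATRA 8 rose and 1, of DPH1, fell (25.5% and 16.1% of all). RP11-667K14.5 (ENST00000571815), a long noncoding RNA on the same strand from 2089681 to 2101560, had no read in untreated cells. It had 37.0, 45.5 and 43.3 normalized reads with ATRA and 36.2, 41.1 and 33.4 with DAC + ATRA, so it was at least 15.2-fold and 13.4-fold higher. RP11-667K14.14 and RP11-667K14.13, on the same strand, rose by log2 fold changes of 4.03 and 4.02 with ATRA (adjusted p = 4.78e-08 and 3.73e-08, limma). Unlike the main HIC1 transcript, none of these 3 was higher with DAC + ATRA than with ATRA (log2 fold changes -0.18, -0.05 and -0.56, adjusted p 0.75, 0.93 and 0.28, limma).

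On the opposite strand, 2 short SMG6 transcripts rose with ATRA. Of these, ENST00000573166 spans 2059846 to 2088761, so its end lies opposite the last exon of HIC1. ENST00000573166 went from 2.77 to 4.60 normalized reads in untreated cells to 33.7 to 44.4 with ATRA (log2 fold change 3.02, adjusted p = 2.91e-05, limma), a call lost with a pseudocount of 0.1 (adjusted p = 0.10). ENST00000575338 rose by 2.94 with ATRA and was higher again by 1.68 when DAC was added (adjusted p = 0.0022, limma, 19.1% of all called higher there), a call lost with a pseudocount of 0.1 (adjusted p = 0.18), without the filter (0.022) and without ATRA library 9 (0.021). The main SMG6 transcript rose far less, by 0.67 with ATRA (adjusted p = 0.00010, limma). Its rise of 0.42 with DAC was lost with scaling by library size (adjusted p = 0.014, limma) and without any of 4 single libraries. RTN4RL1, which lies 28820 bases upstream and encodes a receptor of the Nogo family, rose by 2.90 with DAC (adjusted p = 8.55e-10, limma) and was at 0.13 with ATRA (adjusted p = 0.84, limma).

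**Figure D4:**
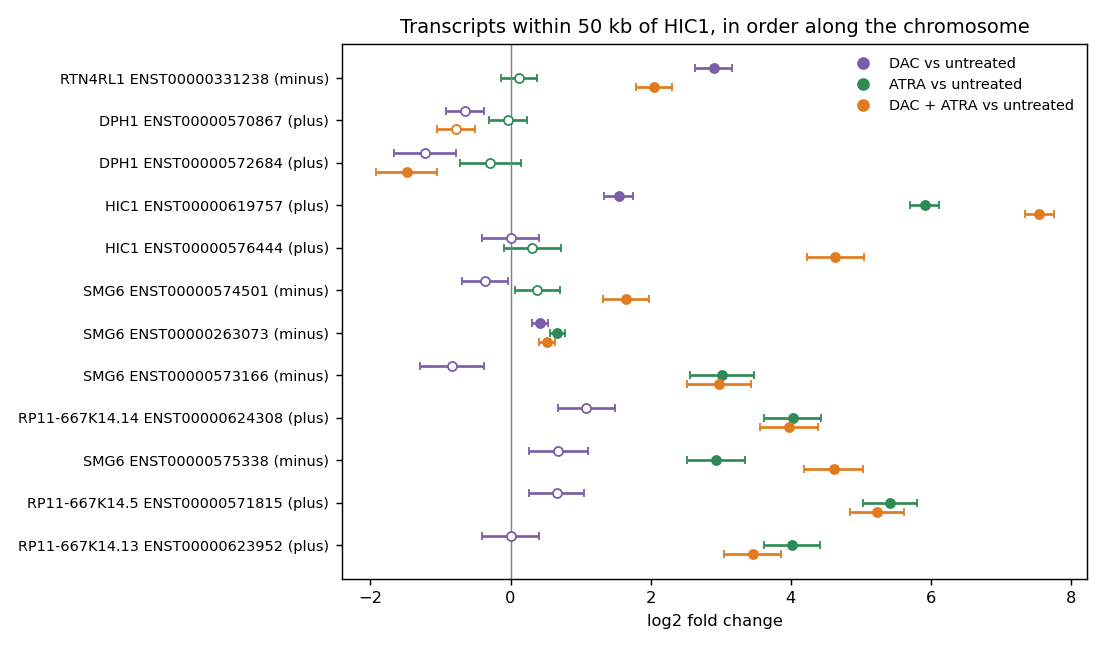
Log2 fold changes (points, with SE) of the transcripts within 50 kb of HIC1 in order along the chromosome, strand in brackets; filled points passed an adjusted p of 0.01 (limma over 19373 transcripts of all kinds). ATRA values (green) are highest for HIC1 and RP11-667K14.5, and DAC values (purple) for RTN4RL1.

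DLX4 (ENSG00000108813) encodes a homeobox transcription factor of the distal-less family. Its main transcript ENST00000240306 covers 49969190 to 49974959 of chromosome 17, plus strand, and 499 of its 2018 bases lie outside other transcripts. It had 35.8, 32.8 and 37.9 normalized reads in untreated cells, 83.2, 55.5 and 75.7 with DAC, 38.0, 30.0 and 22.5 with ATRA, and 44.3, 48.4 and 61.8 with DAC + ATRA. Every DAC library lay above every untreated one, while ATRA and untreated libraries overlapped. DAC doubled it, with a ratio of group means of 2.01 and a log2 fold change of 0.97 (SE 0.22, adjusted p = 0.0011, limma). With ATRA the change was -0.26 (adjusted p = 0.53) and with DAC + ATRA against untreated cells 0.51 (adjusted p = 0.056, limma). DAC + ATRA stood above ATRA by 0.77 (adjusted p = 0.0080, limma), a call that leaving out single libraries, DESeq2 (adjusted p = 0.039) and edgeR with TMM (adjusted p = 0.020) did not keep.

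Summed over all 4 DLX4 transcripts with reads, DLX4 had 62.5, 58.3 and 64.6 normalized reads in untreated cells, 123, 108 and 118 with DAC, 67.6, 52.8 and 45.8 with ATRA, and 82.3, 76.8 and 96.4 with DAC + ATRA. DAC raised the sum by 0.90 (adjusted p = 8.97e-05, limma over 13528 genes summed over transcripts of all kinds, of which 28.2% were called higher). The DAC + ATRA libraries lay between the untreated and the DAC libraries, without overlap, but the difference from DAC was -0.45 with an adjusted p of 0.063 (limma).

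The neighbour of DLX4 changed far more. DLX3, another distal-less homeobox gene that lies 15046 bases away on the other strand, had 0 or 0.91 normalized reads in untreated cells and at most 1.06 with ATRA. It had 117, 250 and 178 with DAC and 183, 258 and 247 with DAC + ATRA, from 1 read in untreated cells to 544 and 647 reads. DLX2 rose from 8.26 ± 2.43 to 109 ± 11.3 with DAC (log2 fold change 3.60, adjusted p = 1.15e-09, limma) but was at 19.4 ± 2.94 with DAC + ATRA, lower than with DAC (-2.44, adjusted p = 2.12e-06, limma). DLX3 and DLX2 passed the filter only through the groups with DAC, so their rises with DAC are a description. DLX6 did not follow DAC (57.2 ± 3.98 and 57.2 ± 9.82) and was lower with ATRA, at 26.2 ± 9.04 (log2 fold change -1.15, adjusted p = 0.0020, limma), and with both drugs, at 19.1 ± 1.88. Its call with ATRA was lost without untreated library 1 or 2 or ATRA library 9 and with only the groups compared (adjusted p 0.010 to 0.013, limma). DLX1 and DLX5 had too few reads to be tested.

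CTNNA1 encodes alpha-catenin, which ties cadherins to actin. It has 44 transcripts in the table, and the most read one, ENST00000522792, is a retained intron form from 138931901 to 138935033 on chromosome 5. That form held 287 of the 374 CTNNA1 reads, and the leading coding transcript, ENST00000520339, held 18. Summed over all transcripts, CTNNA1 had 25.7, 15.5 and 18.5 normalized reads in untreated cells, 23.8, 33.1 and 23.9 with DAC, 24.3, 29.1 and 24.1 with ATRA, and 52.4, 56.8 and 40.8 with DAC + ATRA. Every DAC + ATRA library lay above all 9 others, while the 3 other groups overlapped with each other. The sum rose with DAC + ATRA by a log2 fold change of 1.30 (SE 0.24, adjusted p = 6.09e-05, limma) against untreated cells and by 0.92 against ATRA (adjusted p = 0.0027). Against DAC it was 0.87 and just missed the threshold (adjusted p = 0.011, limma), which it passed in edgeR with TMM (adjusted p = 0.0038) and with only these 2 groups in limma (0.0069). With DAC or ATRA alone the values were 0.43 and 0.39 (adjusted p 0.13 and 0.32, limma). The sum over transcripts of all kinds was added after the values were seen, and among the 13528 genes tested that way 31.1% were called higher when DAC + ATRA was set against untreated cells and 25.1% against ATRA. Leaving out 1 of several ATRA or DAC + ATRA libraries cost the call against ATRA (adjusted p up to 0.019). ENST00000522792 alone rose by 1.06 against untreated cells (adjusted p = 0.0015, limma over 19373 transcripts, 25.5% of them called higher). That call was lost without untreated library 2 or DAC + ATRA library 10 or 11 (adjusted p 0.012 to 0.013, limma). Against ATRA its change of 0.70 did not pass (adjusted p = 0.0365, limma).

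The partners of alpha-catenin were read better. Of 11 genes of the cadherin-catenin junction and its repressors, 7 were tested, and with DAC + ATRA 5 were higher and 2 lower than in untreated cells, where 32.6% and 14.2% of all transcripts were (median log2 fold change 1.24, against 0.20 over all tested). This count is a description, as VCL and CTNND1 had under 10 normalized reads in an untreated library and CTNND1 in all 3. CTNNB1, beta-catenin, rose by 0.96 and JUP, plakoglobin, by 1.37 (adjusted p = 9.13e-06 and 7.97e-06, limma). VCL, vinculin, rose by 1.57 and CTNND1, p120-catenin, by 1.67 (adjusted p = 4.41e-04 and 0.0034, limma), and the call of CTNND1 was lost in DESeq2 (adjusted p = 0.012), with a pseudocount of 0.1 (0.010) and without untreated library 2 (0.019). SNAI1, a repressor of CDH1, was among those that rose, by 2.09 with DAC and 1.24 with both (adjusted p = 1.61e-09 and 2.31e-06, limma). ZEB2, another such repressor, fell by 1.96 with DAC + ATRA (adjusted p = 1.28e-09, limma) and TCF3 by 0.97, a call lost without untreated library 1 (log2 fold change -0.84, adjusted p = 0.012, limma).

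CDH1, E-cadherin, had no read in any of the 12 libraries. Of its 14 transcripts, 3 could not be matched to the annotation. Set against the matched ones, only 527 of the 4811 bases of its main transcript (chromosome 16, 68737292 to 68835537) lie outside other transcripts. In a single library a count of 0 allows a level of up to 2.50 to 3.71 normalized reads (3 reads, counting error only). Whether reads in bases shared between transcripts were counted is not stated, so this is no limit on the RNA of the whole gene. PTPRC is listed at 0 as well. KRT8, a keratin, was the 1 of 8 epithelial markers that could be tested, and it went from 0.30 ± 0.53 normalized reads to 12.2 ± 3.38 with DAC + ATRA.

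DAPK1, a calcium-regulated kinase of cell death, had 58 reads in all, spread over 8 transcripts, and no transcript reached the test. Its sums were 0.919, 2.73 and 4.62 normalized reads in untreated cells, 5.40, 6.82 and 6.97 with DAC, 0, 2.73 and 2.50 with ATRA, and 10.8, 6.32 and 7.41 with DAC + ATRA. The DAC and the DAC + ATRA libraries all lay above the untreated and the ATRA libraries, at 5 to 12 reads against 0 to 5 reads (exact two-sided permutation test, p = 0.1 for DAC or DAC + ATRA against untreated cells, the smallest possible).

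Other kinases of the DAPK family had more reads. STK17A rose from 78.9 ± 12 to 210 ± 37.1 with DAC and 262 ± 7.44 with DAC + ATRA (log2 fold changes 1.39 and 1.73, adjusted p = 7.01e-05 and 4.75e-06, limma). STK17B rose by 0.89 with DAC, and with DAC + ATRA its change was 0.18 (adjusted p = 0.13, limma). DAPK2 followed ATRA instead, from 5.20 ± 0.50 to 16.5 ± 4.07 (log2 fold change 1.47, adjusted p = 0.0065, limma, lost in DESeq2 with 0.018 and without several single libraries), while with DAC it was at 5.43 ± 2.52. DAPK2 was under 10 normalized reads in every untreated and DAC library. It passed the filter only through the groups with ATRA, so its rise is a description. DAPK3 passed in no comparison.

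ID4 belongs to the ID proteins, which bind helix-loop-helix factors and keep them off DNA. All 3873 bases of its transcript ENST00000378700 lie outside the other matched transcripts, but 1 of the 2 ID4 transcripts could not be matched. Neither had a read in any library. As for CDH1, a count of 0 is no limit on the RNA of the whole gene. ID1, of the same family, had 1.84, 0.91 and 0.924 normalized reads in untreated cells, 6.49, 18.5 and 13.9 with DAC, 23.2, 21.8 and 9.99 with ATRA and 68.7, 84.2 and 96.4 with DAC + ATRA. It rose with each drug, and DAC + ATRA lay above both, without overlap (log2 fold changes 2.57, 3.06 and 5.25 against untreated cells, adjusted p = 8.15e-06, 3.95e-06 and 1.93e-10, limma). ID1 was under 10 normalized reads in every untreated library and passed the filter only through treated libraries, so these rises are a description. The ratio of DAC + ATRA to untreated cells was 66.8, with a counting interval of 25.7 to 247. ID2 was between 89.0 and 123 in the group means and passed in no comparison.

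SFRP1, a secreted protein that binds Wnt ligands, had 1 read in each of the 3 DAC libraries, 1 read in 1 DAC + ATRA library and none elsewhere. Its relative SFRP4 had 11.9, 14.6 and 13.9 normalized reads in untreated cells and 36.8, 50.7 and 52.8 with DAC. With ATRA it had 6.34, 7.28 and 6.66, and with DAC + ATRA 20.8, 35.8 and 23.5. All DAC libraries lay above all others but 1 DAC + ATRA library came close (log2 fold change against untreated cells 1.71, adjusted p = 1.96e-05, limma). With DAC + ATRA it was higher by 0.90 (adjusted p = 0.0070, limma), a call lost in edgeR with TMM and in DESeq2. Of 19 components of Wnt signaling, 8 were tested, and with DAC 4 rose and none fell, where 30.6% and 8.7% of all transcripts did (median 0.48 against 0.22 over all tested). The receptors FZD5 and FZD7 rose by 1.58 and 1.81 (adjusted p = 4.60e-10 and 5.95e-08, limma). With DAC + ATRA 5 rose (32.6% of all), among them DVL3 by 0.98, FZD7 by 1.41, GSK3B by 0.70 and FZD4 by 0.65.

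PDLIM4, a PDZ and LIM domain protein of the actin cytoskeleton, had 2, 1 and 0 reads in the DAC libraries, 1, 2 and 0 with DAC + ATRA, and none in the untreated and ATRA libraries. That is too few to compare (exact two-sided permutation test, p = 0.4 against untreated cells). PDLIM1 had a like pattern at a higher level, with 0 reads in untreated and ATRA libraries, 6.49, 22.4 and 15.9 normalized reads with DAC and 10.8, 15.8 and 9.89 with DAC + ATRA. It was at least 5.43-fold higher with DAC than in untreated cells and at least 4.42-fold higher with DAC + ATRA. PDLIM5 rose by 1.02 with DAC, 1.37 with ATRA and 2.42 with both (adjusted p = 0.0018, 4.04e-04 and 4.27e-08, limma), and its call with DAC was lost without DAC library 4 (log2 fold change 0.75, adjusted p = 0.017). PDLIM7 rose by 1.16 with DAC (adjusted p = 4.87e-07, limma).

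Across the 29 relatives of the 8 genes, 14 were tested. Of these, 6 (DAPK2, DAPK3, ID1, DLX2, DLX3 and PDLIM1) had under 10 normalized reads in an untreated library, and a gene that passed the filter only through a group in which it is high had to differ, so the counts are a description. With DAC 9 were higher and none lower (30.6% and 8.7% of all transcripts), with a median log2 fold change of 1.09 against 0.22 over all tested. With ATRA 3 were higher (ID1, PDLIM5 and DAPK2) and 1 lower (DLX6), against 6.47% and 2.67%. With DAC + ATRA 9 were higher and 1 lower (32.6% and 14.2%), with a median of 1.12 against 0.20.

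**Figure D5:**
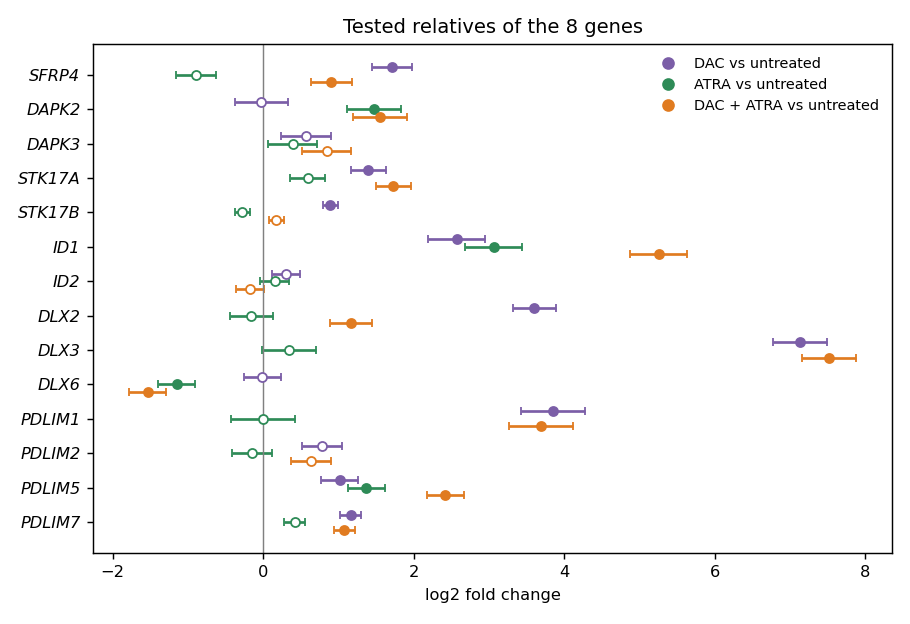
Log2 fold changes (points, with SE) of the tested relatives of the 8 genes with DAC, ATRA and DAC + ATRA against untreated cells; filled points passed an adjusted p of 0.01 (limma). DLX3 is farthest to the right with DAC (7.14) and DAC + ATRA (7.52) but not with ATRA (0.35).

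Other tumor suppressors known for promoter methylation gave a measure to set beside these. Of 34, 15 were tested, and with DAC 9 rose and 1 fell, where 30.6% and 8.7% of all transcripts did (median 0.83 against 0.22). Leaving out 1 library gave 7 to 9 that rose and 0 to 1 that fell. The 1 that fell was MGMT, by 0.60, a call lost without the filter (adjusted p = 0.013, limma) and without any of the untreated libraries or DAC library 5 or 6 (0.011 to 0.016). As above, 7 of the 15 had under 10 normalized reads in an untreated library, so this count is a description too. TIMP3, an inhibitor of metalloproteinases, had no read in untreated and ATRA libraries, 788, 1345 and 1117 normalized reads with DAC and 453, 641 and 533 with DAC + ATRA. It was at least 394-fold higher with DAC and at least 197-fold higher with DAC + ATRA. TNFRSF10A, a death receptor, went from no read to 275, 304 and 291 with DAC and 337, 372 and 402 with DAC + ATRA, at least 105-fold and 134-fold higher.

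Within this list CDKN2A and CDKN2B, the cell cycle inhibitors p16 and p15, rose by 3.68 and 2.79 with DAC (adjusted p = 1.10e-10 and 9.70e-09, limma). SOCS1, which damps cytokine signals, rose by 5.55 (adjusted p = 1.98e-06, limma). CDKN2A, SOCS1 and THBS1 were under 10 normalized reads in every untreated library and passed the filter through treated libraries. Their rises are a description. THBS1, an inhibitor of angiogenesis, was the 1 of the 15 tested genes that rose with ATRA (6.47% of all transcripts did), from 0.31 ± 0.53 to 9.68 ± 5.83, and it reached 235 ± 27.1 with DAC + ATRA against 15.4 ± 5.06 with DAC. CDKN2B fell by 1.19 with ATRA (adjusted p = 0.0022, limma), a call lost in DESeq2 (0.014), in edgeR with TMM (0.027), with only the groups compared (0.030) and without untreated library 3 (0.019) or ATRA library 8 (0.012). RARB, a retinoic acid receptor, was under the filter, with 0.92, 0 and 0 normalized reads in untreated cells, none with DAC and 8.45, 10.01 and 8.32 with ATRA, above every untreated library. CDKN1A, the cell cycle inhibitor p21, also under the filter, had no read in untreated cells and 3.17, 7.28 and 3.33 normalized reads with ATRA. It had 5.40, 0.974 and 2.99 with DAC and 6.33, 8.42 and 1.24 with DAC + ATRA, so all treated groups overlapped. MGMT and BRCA1, both of DNA repair, fell by 0.77 and 0.81 with DAC + ATRA (adjusted p = 3.13e-04 and 0.0021, limma), and the call of BRCA1 was lost without untreated library 1 (0.010).

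HIC1 represses other genes, and 4 of its reported targets that could be tested are described here. They do not cover the whole list of targets followed, so no share or median is read from them. With DAC alone, where HIC1 was at 9.81 ± 0.13 normalized reads, ACKR3 rose by 2.40 on the log2 scale, CCND1 by 1.60 and SIRT1 by 1.43 (adjusted p = 1.27e-08, 1.02e-06 and 2.62e-04, limma). EPHA2, a receptor tyrosine kinase, was under 10 normalized reads in every untreated and ATRA library and passed the filter only through the groups with DAC, so its levels are a description, at 1.23 ± 2.12 in untreated cells, 163 ± 51.7 with DAC and 245 ± 30.0 with DAC + ATRA. With DAC + ATRA, where HIC1 was highest, ACKR3, a chemokine receptor, rose by 2.52, SIRT1, a deacetylase, by 1.24 and CCND1, cyclin D1, by 0.87 (adjusted p = 4.45e-09, 8.03e-04 and 7.05e-04, limma), and the call of CCND1 was lost with only the groups compared (0.015). Between DAC + ATRA and DAC, CCND1 differed by -0.74 on the log2 scale and was the lower with both drugs (limma, adjusted p = 0.0095), a call lost with a pseudocount of 0.1 (0.016) and without any of 10 of the 12 libraries (0.012 to 0.044). EPHA2, ACKR3 and SIRT1 did not pass in that comparison. With ATRA alone, where HIC1 was at 193 ± 26.8, ACKR3 was higher by 1.48 (adjusted p = 4.85e-05, limma), and the 3 others did not pass.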

How the data were processed

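RNA of the 12 U937 libraries was sequenced strand-specifically after depletion of ribosomal RNA. Per the labels and the study's methods, STAR (hg38) and htseq-count gave read counts per transcript, and the deposited signal is the read count divided by 1 size factor per library. All values were whole multiples of 1 step per library, so reads could be recovered. Columns name the group but not the replicate.

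The members and gene lists were chosen with earlier results of these data known. Log2(normalized reads + 1) values of the 9016 protein-coding transcripts with at least 10 normalized reads in at least 3 libraries were fitted in limma 3.58.1 (trend, robust) over all 12 libraries, at an adjusted p under 0.01. From each list, the 2 highest and 2 lowest called genes with DAC + ATRA were named, and others after their values were seen. Of the HIC1 targets, 6 had too few reads to be tested and 1 is not reported here. The procedure was tested on simulated data. edgeR 4.0.16 and DESeq2 1.42.0 on recovered reads, other filters, scalings and pseudocounts, sums by gene and leaving out libraries were alternatives. Promoters are from RefSeq (GRCh38.p14).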

Additional observations from a re-analysis of the deposited data

Results flagged for a closer look

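In 8 of the 59 transcripts followed and tested, the effect of DAC differed between cells with and without ATRA by the interaction term (limma, adjusted p under 0.01), where 2.46% of all coding transcripts were called (0.787% with a positive and 1.67% with a negative term). The count is a description, since some of the 59 passed the filter on low values only through treated libraries. The HIC1 transcript ENST00000576444 gave 4.33, from reads almost only with DAC + ATRA. DLX2 gave -2.28, as DAC raised it by 3.60 without ATRA and by 1.32 with it. FZD4 and FZD1, which encode Wnt receptors, gave 1.15 and -0.95. FZD4 changed with DAC by 0.39 (adjusted p = 0.037) without ATRA and by 1.54 with it, and FZD1 by 0.99 and 0.04 (adjusted p = 0.81). CDKN2B gave 1.75, with steps of 2.79 and 4.53. DKK1, an inhibitor of Wnt signaling, gave -2.80, with no read in untreated and ATRA libraries, 76.2 ± 47.3 normalized reads with DAC and 8.65 ± 1.29 with DAC + ATRA, and its fitted value depends on the pseudocount. The integrin genes ITGAM and ITGAX gave -0.63 and -1.67, as each drug alone raised them and the step with DAC was smaller in the presence of ATRA. Some of these calls did not hold. ITGAM lost it without the filter on low values (adjusted p = 0.024, limma) and without any of 11 of the 12 libraries (0.012 to 0.041), and ITGAX without ATRA library 8 or any DAC + ATRA library (0.010 to 0.012). CDKN2B lost it in edgeR with TMM (0.015), DKK1 with a pseudocount of 0.1 (0.26) and in edgeR (1.0), and both, like FZD1, without several single libraries. That of the HIC1 transcript was lost with a pseudocount of 0.1 and in edgeR.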

How the results depend on the processing

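No paired analysis was possible because the columns carry no replicate numbers. Of the members called, the count with DAC fell from 2 to 1 in DESeq2 and to 1 when 10 normalized reads in every library were asked for, a filter that left 1 member in the test. With ATRA it went from 1 to 2 without a filter and to 0 with the strict filter. With DAC + ATRA against untreated cells it went from 2 to 4 without a filter, 0 with the strict filter and 1 with coding transcripts summed by gene, and leaving out 1 library gave 1 to 2. Against DAC it was 0 with the strict filter and 1 under either sum by gene, and 1 to 2 leaving out 1 library. Against ATRA it was 1 with the strict filter and 1 to 3 leaving out 1 library. For the interaction it was 0 with a pseudocount of 0.1, the strict filter, edgeR under either scaling, DESeq2 and either sum by gene, and 0 to 1 leaving out 1 library. The interaction of the main HIC1 transcript changed sign, to -0.25 with a pseudocount of 0.1, -0.14 in edgeR with TMM, -0.22 in edgeR with DESeq2 size factors and -0.23 in DESeq2, and ranged from -0.039 to 0.19 leaving out 1 library; the cause was not tested. Few reads limit DAPK1, SFRP1 and PDLIM4.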

Other observations

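Over the 12 libraries, the genes whose log2 values went most like those of HIC1 were CD180, a Toll-like receptor relative (Pearson r 0.991), UBE2J1, a ubiquitin-conjugating enzyme (0.989), and CYSRT1 (0.988). CD180 went from 748 ± 52.5 normalized reads in untreated cells to 1107 ± 60.1 (DAC), 2815 ± 235 (ATRA) and 5224 ± 356 (DAC + ATRA). For DLX4 they were SNAI1 (0.949), FAM118A (0.945) and NKX3-2 (0.944). These values are across libraries of 4 groups that share their treatments and are a description.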
